A study of Arabidopsis thaliana with 36 samples.

Results

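The hexose transporter mutant stp1/4/13 was compared with its wild type Col in 7-day-old Arabidopsis thaliana plants harvested 10 h after 1 µM of the bacterial flagellin peptide flg22 was added. The members are the libraries whose titles give these 2 genotypes at this time, 3 of stp1/4/13 and 3 of Col, 6 of the 36 libraries in the series. The 3 fls2 libraries of the same treatment and time, from plants that lack the flg22 receptor, served as a reference without flg22 perception, and the Col and stp1/4/13 libraries at 2 h and 24 h were used for the time course. Every one of these plants grew at 22 °C with 16 h of light and stood in liquid medium with 25 mM sucrose when flg22 was given. The study repeated each harvest in 3 independent trials, so each p-value rests on 3 libraries a group. No group of stp1/4/13 or Col plants without flg22 was used, so a difference given here holds both what the mutations do under flg22 and what they do without it, and the 2 cannot be told apart. The alleles of the mutant lines are not given in the sources used here.

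STP proteins are proton-coupled symporters of the plasma membrane that take hexoses, mainly glucose, from the apoplast into the cell. STP1 and STP13 carry most of the hexose uptake of seedlings, and STP13 is phosphorylated by BAK1, the co-receptor that pairs with FLS2 when flg22 binds, so these transporters join sugar uptake to pattern-triggered immunity. A plant cell short of sugar activates the kinase SnRK1, which acts in part through bZIP transcription factors of the C and S1 groups. Their targets include the dark-inducible (DIN) genes and enzymes that break amino acids down for respiration. Ample sugar represses these genes and photosynthesis genes, and feeds starch, anthocyanin and glucosinolate synthesis.

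The promoters of the leading 2 genes in each direction are shown, because bZIP factors bind sites with an ACGT core and TATCCA elements are known from sugar-repressed plant promoters. Each is the 250 bases upstream of the start of the gene in RefSeq, build TAIR10.1, printed 5′ to 3′ on the strand of the gene. Capitals mark ACGT and TATCCA on either strand, TATCCA reading TGGATA on the other. ASN1 lies at chr3:17441432-17441681 on the minus strand, SEN1 at chr4:16944628-16944877 on the plus strand, MRD1 at chr1:19964713-19964962 on the minus strand and STP1 at chr1:3776986-3777235 on the plus strand.
ASN1: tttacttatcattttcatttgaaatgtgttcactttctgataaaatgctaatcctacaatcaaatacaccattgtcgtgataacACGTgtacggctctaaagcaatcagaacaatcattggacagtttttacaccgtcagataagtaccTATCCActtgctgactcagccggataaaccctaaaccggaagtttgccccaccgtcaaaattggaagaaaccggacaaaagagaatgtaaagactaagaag
SEN1: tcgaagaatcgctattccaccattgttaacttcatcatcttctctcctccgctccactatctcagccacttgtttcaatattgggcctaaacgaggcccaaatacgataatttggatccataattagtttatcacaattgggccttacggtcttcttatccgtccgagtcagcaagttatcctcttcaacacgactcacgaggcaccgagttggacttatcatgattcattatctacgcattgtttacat
MRD1: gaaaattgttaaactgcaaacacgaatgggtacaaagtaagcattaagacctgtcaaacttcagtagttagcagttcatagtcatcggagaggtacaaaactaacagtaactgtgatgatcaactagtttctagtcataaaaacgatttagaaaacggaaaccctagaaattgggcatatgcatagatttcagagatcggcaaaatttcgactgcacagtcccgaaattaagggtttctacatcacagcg
STP1: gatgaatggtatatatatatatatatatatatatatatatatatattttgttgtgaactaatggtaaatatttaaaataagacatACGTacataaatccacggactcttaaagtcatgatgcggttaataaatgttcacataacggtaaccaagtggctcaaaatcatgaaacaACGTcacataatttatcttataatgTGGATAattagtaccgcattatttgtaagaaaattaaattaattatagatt
The ASN1 window, of the gene that rose most, holds 1 ACGT core, which lies inside a G-box (CACGTG), and 1 TATCCA element, while the SEN1 and MRD1 windows hold neither motif. The STP1 window holds 2 ACGT cores and 1 TATCCA element. STP1 is itself one of the genes mutated in stp1/4/13, and a link between motifs and the level of any gene was not tested. TATCCA was found in 14.2% of the promoters of 19490 genes tested, in 22.0% of those of genes that rose in stp1/4/13 (330 of 1500), in 12.6% of those of genes that fell (119 of 946) and in 7 of the 30 of the sugar starvation genes described below. ACGT was found in 44.3%, 46.9% and 44.8% of the first 3 of these sets and in 13 of the 30 sugar starvation promoters (43.3%). The W-box core, TTGACC or TTGACT, stood in 28.7% of all promoters, in 25.1% of those that rose and in 33.1% of those that fell. These shares describe letters in a window and carry no test.

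Total counts ran from 9462067 to 11309472 reads over the 6 libraries, both ends being mutant libraries. The first principal component of the 6 libraries held 41.7% of the variance and separated the genotypes. The next, with 18.9%, set stp1/4/13 library 3 at -52.5 apart from the other mutant libraries at 20.9 and 35.1. Over all genes tested the mutant libraries correlated with one another at 0.960 to 0.967. Summed markers of root tissue stood at 94.9 to 117 CPM (counts of a gene per M reads of its library, M being mega) in Col, 121 to 137 in stp1/4/13 and 277 to 381 in fls2, with AGP30 at 0 in Col and COBL9 at 0 in stp1/4/13, the other 16 of 17 root markers having counts in each of these 2 genotypes. Guard cell markers, 6 of 6 with counts, stood at 42.0 to 48.9 CPM in Col and 45.6 to 53.8 CPM in the mutant. In whole plants, fewer cells of a type and less RNA per cell cannot be told apart.

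The 3 genes named in the genotype were far below Col in every mutant library. STP1 stood at 211, 319.8 and 366 CPM in Col and at 9.63, 5.19 and 13.5 CPM in stp1/4/13 (log2 difference -4.99 ± 0.30 SE, edgeR adjusted p = 3.1e-08). STP13 stood at 309.8, 307 and 326 CPM in Col and at 12.8, 15.7 and 16.3 CPM in the mutant (-4.40 ± 0.25). STP4 kept more reads, with 364, 355 and 389 CPM in Col against 73.9, 81.5 and 104 CPM (-2.09 ± 0.15). No library of one genotype reached the other for any of the 3. Libraries of this kind read the 3′ end of a transcript and the place of each mutation is not given here, so these values describe the 3′ ends that remained. In fls2 plants STP13 was at 11.4, 26.6 and 26.7 CPM and STP4 at 63.3, 69.2 and 58.7 CPM and STP1 at 78.9, 115 and 76.5 CPM, all below Col. The flg22 receptor gene FLS2 was at 19.2, 24.3 and 23.5 CPM in Col and at 19.7, 21.3 and 15.8 CPM in stp1/4/13, ranges that overlapped (-0.24 ± 0.19, edgeR adjusted p = 0.48), and at 0.201, 0.106 and 0.187 CPM in fls2.

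**Figure D1:**
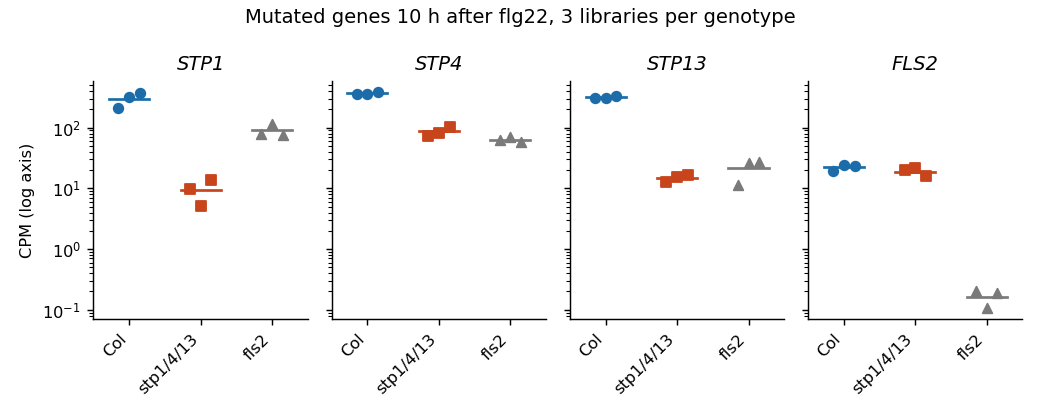
CPM on a log axis for STP1, STP4, STP13 and FLS2 in each library at 10 h of flg22, with a line at the mean of each genotype. The 3 transporter genes lie below Col in each stp1/4/13 library (STP1 at 5.19 to 13.5 CPM against 211 to 366), and FLS2 overlaps between Col and stp1/4/13.

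Of the 5 genes on either side of each mutated locus in the reference order, those that passed lay beside STP4 and STP13, and 8 were tested beside STP1. Over all genes, 12.5% passed in either direction. Beside STP4, 2 of 7 passed, AT3G19900 (0.67 ± 0.19) and AT3G19970 (-1.26 ± 0.31). Beside STP13, 2 of 6 passed, PWD, a kinase of starch breakdown (0.91 ± 0.17), and PYR6, a nucleotide kinase (-0.66 ± 0.15). The call of PYR6 was lost without Col library 1, that of AT3G19970 without stp1/4/13 library 1 or Col library 2, and that of AT3G19900 without any one of Col libraries 1 to 3 or stp1/4/13 libraries 1 and 3. Elsewhere in the genome, MRD1, named for its response to methionine over-accumulation, was at 57.1, 63.2 and 69.5 CPM in Col and at 3.03, 1.1 and 1.09 CPM in the mutant (-5.14 ± 0.29). NFXL2, a zinc finger regulator, was at 24.1, 16.4 and 19.5 CPM in Col against 4.28, 3.09 and 2.5 CPM (-2.59 ± 0.25). Both genes were also below Col in the mutant at 2 h (-4.34 ± 0.50 and -3.21 ± 0.38) and at 24 h (-5.72 ± 0.56 and -2.91 ± 0.39).

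Of 19561 genes tested, 1501 were higher in stp1/4/13 (7.67%) and 946 lower (4.84%), by edgeR's quasi-likelihood test at an adjusted p below 0.05. The difference exceeded 1 on the log2 scale for 584 of those that rose and 260 of those that fell, while the median over all genes was -0.0036, with quartiles at -0.32 and 0.32. The 3 mutant libraries stood wholly above the 3 Col libraries for 3307 genes (16.9%) and wholly below for 3123 (16%). The balance between the directions depends on the scaling: DESeq2 called 1485 higher and 1446 lower, 50.7% higher against 61.3% here. Single libraries also moved these counts. Leaving out Col library 1 gave 888 higher and 419 lower, stp1/4/13 library 1 gave 919 and 447, and Col library 3 gave 934 and 482. The lower count was also 540 without Col library 2, 625 without stp1/4/13 library 2 and 514 without stp1/4/13 library 3. Without the last of these, 1156 genes were higher.

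The genes that rose most are led by asparagine synthesis and by markers of darkness and sugar shortage. ASN1 (DIN6), the glutamine-dependent asparagine synthetase that is switched on in the dark, was at 9.0, 6.25 and 7.15 CPM in Col and at 186, 108 and 172 CPM in stp1/4/13 (4.38 ± 0.23, edgeR adjusted p = 1.8e-08). SEN1 (DIN1), a classical senescence and darkness marker, was at 12.7, 15.9 and 20.3 CPM in Col and at 240.1, 153 and 243 CPM in the mutant (3.70 ± 0.22). DIN2, a beta-glucosidase, was at 11.3, 5.96 and 10.2 CPM against 94.0, 62.0 and 106 CPM (3.25 ± 0.26). For each of these genes, picked by the size of the rise, every mutant library lay above every Col library, as for 16.9% of all genes. BT1 and BT2, BTB-TAZ scaffold proteins of which BT2 is known to be repressed by sugar, rose by 3.35 ± 0.28 and 2.69 ± 0.27, BT2 from 34.7, 54.3 and 45.2 CPM to 321, 253 and 296 CPM.

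The other leading genes that rose have several roles. THA1, threonine aldolase, was at 6.87, 6.83 and 7.64 CPM in Col and at 64.9, 34.7 and 46.4 CPM in stp1/4/13 (2.77 ± 0.26). BCAT-2, a branched-chain aminotransferase, was at 10.4, 11.4 and 9.37 CPM against 61.1, 41.9 and 70.8 CPM (2.48 ± 0.21). BXL1, a beta-xylosidase of the cell wall, was at 19.5, 21.7 and 13.1 CPM against 123, 102 and 103 CPM (2.59 ± 0.29). No Col library of these genes, also picked by size, reached a mutant library, as for 16.9% of all genes. GER3, a germin-like protein and the most abundant of the 12, was at 213, 399.9 and 342 CPM in Col, at 2564, 2024 and 2336 CPM in the mutant (2.86 ± 0.31) and at 2085, 1977 and 687 CPM in fls2. GLYI7, of the glyoxalase I family, and OZF1, a zinc finger protein, rose by 3.09 ± 0.29 and 2.3 ± 0.19. The cytochrome P450 CYP81D11 rose by 2.39 ± 0.56 (edgeR adjusted p = 0.0096), with 2.61, 3.94 and 4.06 CPM in Col and 14.3, 26.9 and 14.7 CPM in the mutant, but its adjusted p was 0.053 without Col library 1 and its call was also lost without stp1/4/13 library 2.

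**Figure D2:**
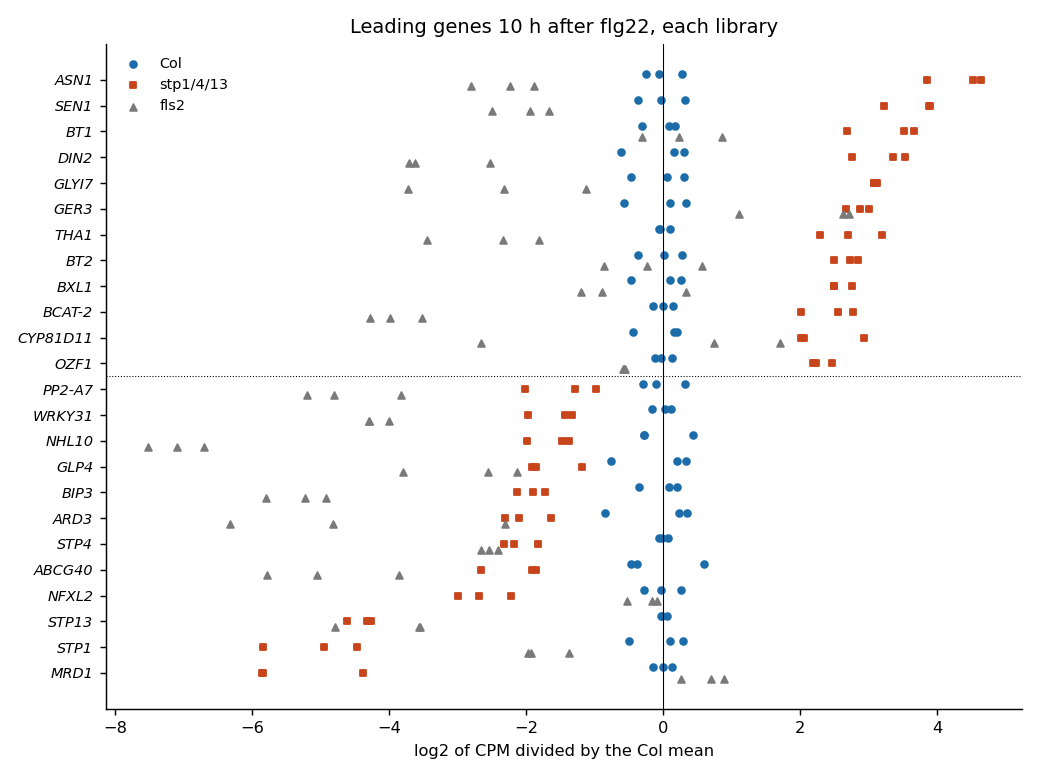
Log2 of CPM over the Col mean for the 12 genes that rose most and the 12 that fell most in stp1/4/13, one point for each of the 9 libraries at 10 h. The Col points lie around 0 and the stp1/4/13 points lie to one side, while the fls2 points fall on either side of Col. The edgeR differences of these genes run from 4.38 for ASN1 to -5.14 for MRD1.

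The sugar starvation list moved nearly as a whole. This list, like the others, was chosen with earlier results of these data known, so its share set beside that of all genes carries no test. Of its 30 genes, all tested, 25 rose in stp1/4/13 (7.67% of all genes did) and 1 fell, with a median log2 difference of 1.31 against -0.0036 over all genes. In 28 of the 30 the mutant libraries stood wholly above Col (16.9% of all genes). The count stayed at 24 or 25 whichever library was left out. The median of the list against the Col mean was 1.31, 1.31 and 1.33 in the 3 mutant libraries and -1.42, -1.44 and -1.49 in the fls2 libraries.

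The enzymes that degrade leucine, isoleucine and valine rose at several successive steps. Beside BCAT-2, DIN3 and DIN4, subunits of the branched-chain keto acid dehydrogenase, rose by 1.8 ± 0.17 and 1.77 ± 0.19. DIN3 was at 12.9, 13.2 and 12.1 CPM in Col and at 44.1, 43.2 and 45.9 CPM in stp1/4/13. IVD, isovaleryl-CoA dehydrogenase, was at 39.3, 32.3 and 33.0 CPM against 89.7, 87.7 and 82.7 CPM (1.31 ± 0.14). The 2 subunits of methylcrotonyl-CoA carboxylase, MCCA and MCCB, rose by 2.1 ± 0.21 and 1.1 ± 0.17. ETFQO, which passes the electrons of this pathway to the respiratory chain, rose by 1.45 ± 0.16. For these 6 genes, picked from those that rose, the mutant libraries stood wholly above Col, as they did for 16.9% of all genes.

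Enzymes that break down proline, lysine and glutamate are also among the members of the list that rose. ERD5, proline dehydrogenase, was at 24.6, 27.1 and 30.5 CPM in Col and at 118, 106 and 108 CPM in the mutant (2.01 ± 0.14, edgeR adjusted p = 1.9e-07), with fls2 at 34.2, 36.0 and 31.6 CPM. LKR, the first enzyme of lysine breakdown, rose by 1.25 ± 0.18. The glutamate dehydrogenases GDH1 and GDH2 rose by 0.71 ± 0.15 and 0.70 ± 0.13. Members with other roles rose too, the pyruvate phosphate dikinase PPDK by 0.94 ± 0.18 and the F-box protein gene KMD4 by 1.14 ± 0.19. DIN10, a raffinose synthase family member, was at 137, 132 and 124 CPM in Col and at 506, 398 and 406 CPM in the mutant (1.74 ± 0.14), and the beta-galactosidase gene BGAL4 rose by 1.53 ± 0.22.

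The regulators in the list did not all move alike. bZIP1, an S1-group factor that activates starvation genes, was at 77.9, 65.2 and 82.8 CPM in Col and at 176, 214 and 169.5 CPM in stp1/4/13 (1.31 ± 0.19), and the C-group factor bZIP63 rose by 0.87 ± 0.16. The S1 factor bZIP11, whose translation is repressed by sucrose, was the one gene of the list that fell, from 38.0, 34.1 and 29.1 CPM to 19.2, 20.3 and 19.3 CPM (-0.79 ± 0.15, edgeR adjusted p = 0.0023), with fls2 at 107, 101 and 119.9 CPM. bZIP53 differed by 0.26 ± 0.13 and did not pass. The SnRK1 subunit AKINBETA1 rose by 1.42 ± 0.17. TPS8, TPS10 and TPS11, members of the trehalose phosphate synthase family without known synthase activity, rose by 1.37 ± 0.18, 0.80 ± 0.24 and 1.22 ± 0.22, the call of TPS10 being lost under both other scalings and without any one of the 6 libraries other than stp1/4/13 library 3. TPS9 (0.66 ± 0.27), DIN9, a phosphomannose isomerase (1.05 ± 0.46), and the dioxygenase DIN11 (0.43 ± 0.23) did not pass, and of these DIN11 overlapped between the genotypes.

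Of 26 sugar transporter and invertase genes tested, 6 rose in stp1/4/13 (7.67% of all genes), with a median of 0.18. SWEET1, a plasma membrane hexose facilitator, was at 7.74, 10.2 and 5.51 CPM in Col, at 29.1, 23.9 and 25.9 CPM in the mutant (1.75 ± 0.23) and at 50.9, 31.6 and 44.2 CPM in fls2. STP14, a galactose transporter of the same family as the mutated genes, was at 13.1, 10.0 and 9.28 CPM in Col and at 32.3, 27.2 and 34.3 CPM in the mutant (1.54 ± 0.20). SWEET2, a facilitator of the vacuolar membrane, rose by 1.43 ± 0.18, from 50.9, 47.1 and 54.9 CPM to 117, 125 and 171 CPM. The vacuolar carriers TMT1, which loads hexoses, and ERDL6, which exports glucose, rose by 1.26 ± 0.16 and 0.61 ± 0.16, and the call of ERDL6 was lost without stp1/4/13 library 1 or 2 or Col library 2 or 3. The call of SWEET16 (1.35 ± 0.38) was lost without Col library 1 or 2 or stp1/4/13 library 2 or 3. The cell wall invertase cwINV1 was at 539, 508 and 524 CPM in Col and at 434, 527 and 494 CPM in the mutant, which overlap (-0.11 ± 0.15).

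Of 19 genes of starch and sugar-induced metabolism 6 rose and 1 fell (7.67% and 4.84% of all genes), with a median of 0.07. BAM3, the beta-amylase of starch breakdown in chloroplasts, was at 12.6, 21.5 and 15.1 CPM in Col and at 47.4, 49.9 and 33.5 CPM in the mutant (1.41 ± 0.23). SEX1, the glucan water dikinase that starts starch breakdown, rose by 1.05 ± 0.24. NIA1, a nitrate reductase, was at 79.3, 74.1 and 71.9 CPM against 227, 161 and 183 CPM (1.34 ± 0.14). GPT2, a sugar-induced glucose phosphate translocator, was at 37.7, 18.3 and 14.2 CPM in Col, 13.6, 7.88 and 10.9 CPM in the mutant (-1.11 ± 0.31) and 102, 164 and 167 CPM in fls2, and its call was lost under DESeq2 and without Col library 1 or stp1/4/13 library 2 or 3. Of 14 genes of nitrate and ammonium assimilation 3 rose (7.67% of all genes): the chloroplast glutamine synthetase GS2 (1.00 ± 0.14), the glutamate synthase GLU1 (0.82 ± 0.21) and the asparagine synthetase ASN2 (0.73 ± 0.17). That count was 1 without Col library 1, stp1/4/13 library 1 or Col library 3. None of 11 genes of trehalose phosphate synthesis and breakdown passed with edgeR or DESeq2, 3 having an unadjusted p below 0.05. Without Col library 2, 1 passed as higher with edgeR, and alternatives that kept all libraries gave at most 1 higher.

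Most photosynthesis genes on the list rose in the mutant. Of 39 nuclear genes 31 rose (7.67% of all genes), with a median of 0.72, and in 32 the mutant libraries stood wholly above Col (16.9% of all genes). The count that rose was 22 to 32 without any one Col or stp1/4/13 library. Against the Col mean the median of the list was 0.81 and 0.84 in stp1/4/13 libraries 1 and 2 and 0.48 in library 3. RBCS2B, a Rubisco small subunit, was at 103, 163 and 95.1 CPM in Col, 476, 368 and 249.5 CPM in stp1/4/13 (1.6 ± 0.24) and 447, 399 and 261 CPM in fls2. PRK, phosphoribulokinase of the Calvin cycle, was at 95.6, 149 and 114 CPM in Col and at 369, 355 and 329 CPM in the mutant (1.55 ± 0.23). RCA, Rubisco activase, was at 947, 1315 and 922 CPM against 2751, 2680.5 and 2229 CPM (1.27 ± 0.16). RBCS3B and RBCS1B rose by 1.38 ± 0.22 and 1.31. These genes and RBCS2B are near-identical and can exchange reads in counting, as can genes within the LHCB1 and LHCB2 groups. Among light-harvesting genes LHCB2.3 rose by 1.3 ± 0.35, LHCB1.3 by 0.85 ± 0.13 and LHCA4 by 0.51 ± 0.12, with LHCB2.3 and LHCA4 not past the threshold without stp1/4/13 library 1 or 2 or Col library 2 or 3. LHCB2.2 (0.01 ± 0.19) and LHCB3 (0.23 ± 0.16) overlapped between the genotypes. Summed over the 16 LHCB and RBCS genes used as green tissue markers, the level was 10251 to 13245 CPM in Col, 19118 to 24210 CPM in stp1/4/13 and 16352 to 23524 CPM in fls2. The part of tissue proportions in this difference was not tested.

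**Figure D3:**
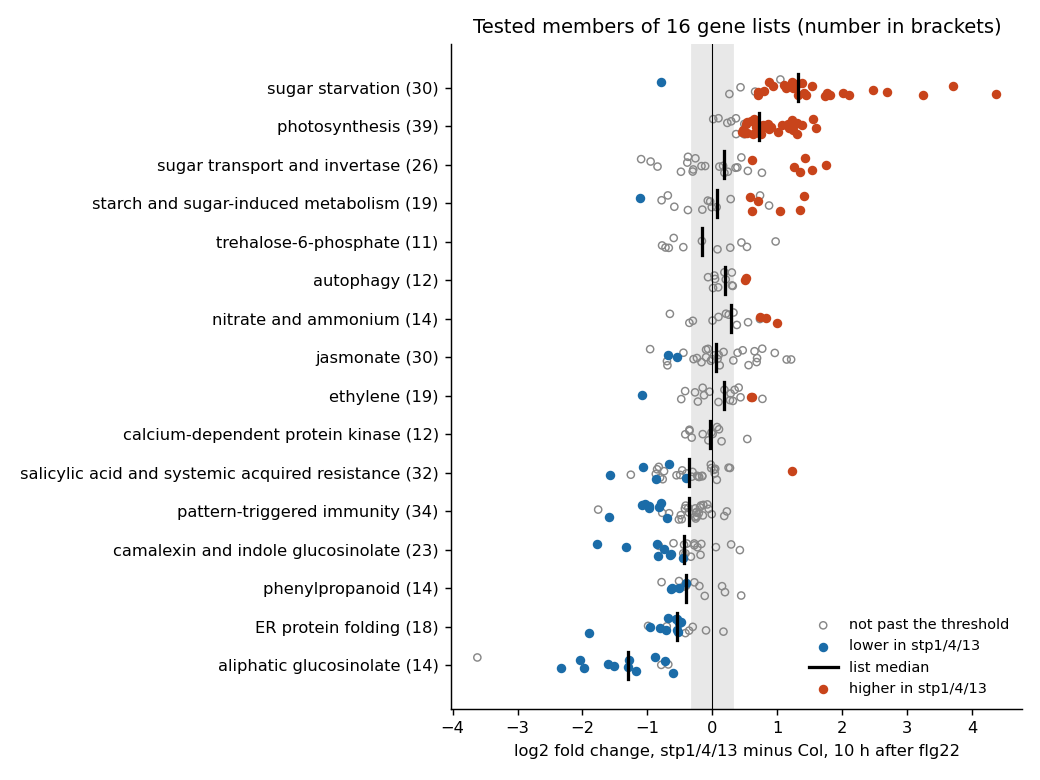
Log2 difference between stp1/4/13 and Col at 10 h for the tested genes of 16 lists, red for genes that rose, blue for genes that fell and open for genes that did not pass, with a black bar at the list's median and a grey band at the quartiles of all genes (-0.32 to 0.32). The sugar starvation and photosynthesis medians (1.31 and 0.72) lie above the band. Far below it lies that of aliphatic glucosinolate genes (-1.29), followed by ER protein folding (-0.54) and camalexin and indole glucosinolate (-0.44). Those of phenylpropanoid (-0.40), pattern-triggered immunity (-0.37) and salicylic acid genes (-0.36) lie just below it.

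The 12 genes that fell most hold the 3 transporters, MRD1 and NFXL2 and genes of several other roles. ABCG40, a transporter of abscisic acid, was at 159.8, 81.1 and 76.0 CPM in Col, 29.1, 28 and 16.8 CPM in stp1/4/13 (-2.1 ± 0.33, edgeR adjusted p = 0.00059) and 1.91, 3.19 and 7.28 CPM in fls2. BIP3 and NHL10 are described with their groups below. WRKY31, a transcription factor, was at 26.1, 22.9 and 27.7 CPM in Col against 6.51, 10.2 and 9.47 CPM (-1.56 ± 0.21). The germin-like gene GLP4 fell by 1.62 on the log2 scale (-1.62 ± 0.36). ARD3, of methionine salvage, differed by -1.98 ± 0.50 and its call was lost under DESeq2 and without Col library 1 or 3 or stp1/4/13 library 2 or 3. The call of PP2-A7, a phloem protein 2 family gene (-1.37 ± 0.30), was lost without Col library 3.

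Some genes of pattern-triggered immunity fell in stp1/4/13. Of 34 tested 8 fell (4.84% of all genes) and 26 did not pass, with a median of -0.37, and in 18 of the 34 the mutant libraries stood wholly below Col (16% of all genes). The count of genes that fell was 6 to 8 without any one Col or stp1/4/13 library and 13 without fls2 library 1. The alternatives that left out no single library gave 8 to 15. FRK1, the receptor-like kinase gene used as the standard flg22 marker, was at 284, 235 and 301 CPM in Col, 142, 170.3 and 160.4 CPM in stp1/4/13 (-0.79 ± 0.14, edgeR adjusted p = 0.0013) and 2.31, 3.19 and 2.89 CPM in fls2. NHL10, another flg22 marker, was at 276, 169 and 168 CPM in Col, 51.4, 78.8 and 73.2 CPM in the mutant (-1.59 ± 0.20) and 1.11 to 1.96 CPM in fls2. The 3 genotypes were thus fully separated for both markers.

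The other genes of this group that fell encode peroxidases, transcription factors and a danger peptide. PRX52, a class III peroxidase, was at 865, 624 and 714 CPM in Col and at 244, 431 and 367 CPM in stp1/4/13 (-1.08 ± 0.22). PER4, another peroxidase, was at 229, 166 and 156 CPM against 97.0, 105 and 78.0 CPM (-0.97 ± 0.17). WRKY40 was at 34.1, 34.3 and 29.7 CPM against 15.8, 19.0 and 13.0 CPM (-1.04 ± 0.24). WRKY53 (-0.98 ± 0.20), the zinc finger gene ZAT12 (-0.70 ± 0.19) and the danger peptide precursor gene PROPEP3 (-0.83 ± 0.22) fell as well. The call of ZAT12 was lost without Col library 1 or 2 or stp1/4/13 library 1 or 3, and that of PROPEP3 without Col library 1 or 3 or stp1/4/13 library 1 or 2. Signalling components did not pass: the co-receptor gene BAK1 was at 146, 136 and 151 CPM against 130.2, 110.1 and 143 CPM (-0.18 ± 0.13), the kinase gene MPK3 at 59.9, 67.3 and 71.9 CPM against 62.2, 65.1 and 70.5 CPM (-0.01 ± 0.14). RBOHD, the NADPH oxidase of the flg22 oxidative burst, differed by -0.52 ± 0.18 (edgeR adjusted p = 0.078) and WRKY33 by -0.47 ± 0.21. None of 12 calcium-dependent protein kinase genes passed with edgeR or DESeq2, 3 having an unadjusted p below 0.05. Without fls2 library 1, 2 or 3, 1 passed as higher with edgeR. Alternatives that kept all libraries gave at most 1 higher and 1 lower.

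**Figure D4:**
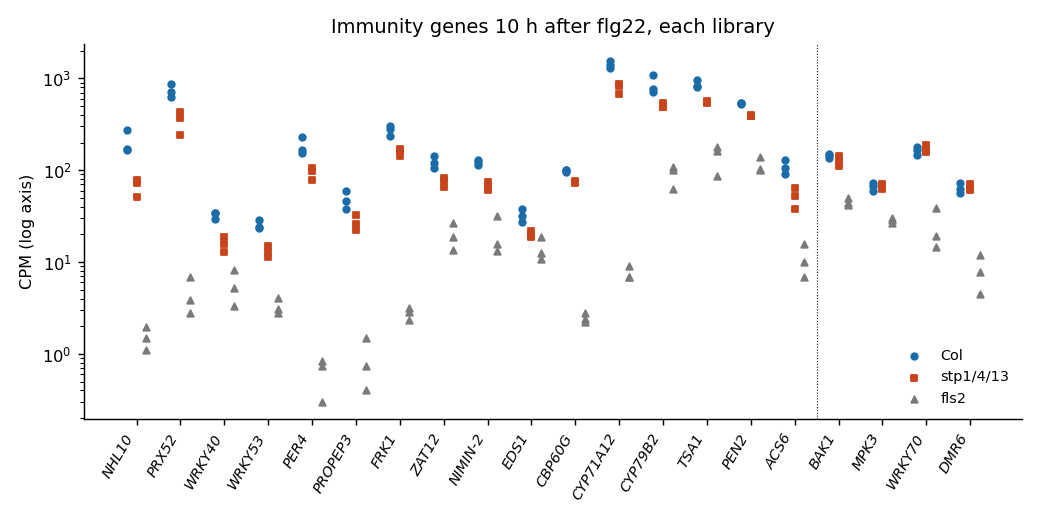
CPM on a log axis for 20 defence genes in each library at 10 h, 16 that fell in stp1/4/13 left of the dotted line and 4 that did not pass (BAK1, MPK3, WRKY70, DMR6), chosen after their values were seen, right of it. For FRK1 the Col libraries lie at 235 to 301 CPM, the stp1/4/13 libraries at 142 to 170.3 CPM and the fls2 libraries at 2.31 to 3.19 CPM.

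Of 32 genes of salicylic acid signalling 5 fell and 1 rose (4.84% and 7.67% of all genes), with a median of -0.36. CBP60G, a transcription factor that drives salicylic acid synthesis, was at 95.5, 100.1 and 100.1 CPM in Col and at 72.5, 73.7 and 76.9 CPM in stp1/4/13 (-0.41 ± 0.13, edgeR adjusted p = 0.046). EDS1, the lipase-like immune hub, was at 27.3, 32.0 and 37.6 CPM against 20.3, 21.8 and 18.8 CPM (-0.67 ± 0.20). DLO1, a salicylic acid hydroxylase (-1.58 ± 0.45), EDS5, a chloroplast transporter of salicylic acid synthesis (-1.07 ± 0.26), and NIMIN-2, an NPR1 interactor (-0.87 ± 0.22), make up the 5. The call of CBP60G was lost with no filter on low counts, under the replicate block and without any one of the 6 libraries. That of EDS1 was lost without any one other than Col library 1, and that of DLO1 without any one other than Col library 2. EDS5 lost its call without Col library 1 or stp1/4/13 library 1, and NIMIN-2 without stp1/4/13 library 1 or 2 or Col library 3. The count of falls was 2 without Col library 1, 1 without stp1/4/13 library 1, 3 without Col library 2, 1 without stp1/4/13 library 2, 1 without Col library 3, 2 without stp1/4/13 library 3 and 9 without fls2 library 2. Falls numbered 4 to 10 under the alternatives that left out no single library. ACD6, an ankyrin membrane protein, rose from 12.6, 24.5 and 17.1 CPM to 51.1, 44.3 and 31.2 CPM (1.23 ± 0.26). The synthesis gene ICS1 (-0.46 ± 0.20), the marker PR1 (-1.26 ± 0.46, edgeR adjusted p = 0.085), the receptor gene NPR1 (0.07 ± 0.22) and WRKY70 (0.04 ± 0.23) did not pass.

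Of 23 genes of camalexin and indole glucosinolate synthesis, the tryptophan-derived defence compounds, 8 fell (4.84% of all genes), with a median of -0.44. CYP71A12, of the indole carbonyl nitrile and camalexin routes, was at 1392, 1285 and 1545 CPM in Col, 682, 822 and 858 CPM in stp1/4/13 (-0.84 ± 0.14) and 6.94, 6.92 and 9.15 CPM in fls2. Its near-identical neighbour CYP71A13 was at 13.6, 16.4 and 11.4 CPM against 3.12, 6.19 and 2.83 CPM (-1.77 ± 0.42), and reads of this pair may have been split in counting. PAD3, the last enzyme of camalexin synthesis, was at 45.6, 29.9 and 42.7 CPM against 15.2, 15.3 and 16.7 CPM (-1.33 ± 0.36). CYP79B2, which makes the shared precursor, fell (-0.75 ± 0.19), as did the myrosinase gene PEN2 (-0.45 ± 0.13), while the transporter gene PEN3 differed by 0.05 ± 0.14. The count of falls was 2 without Col library 1 or stp1/4/13 library 1, 5 without Col library 2, 4 without stp1/4/13 library 2 or Col library 3 and 3 without stp1/4/13 library 3. With no single library left out, the alternatives gave 8 to 12 falls. The call of CYP71A13 was lost without stp1/4/13 library 1 or 3. That of PAD3 was lost under DESeq2 and without any one of the 6 libraries other than Col library 2. PEN2 lost its call without any one of the 6, and CYP79B2 without Col library 1 or stp1/4/13 library 1 or 3. CYP82C2 (-0.85 ± 0.27) lost its call without any one of the 6 other than stp1/4/13 library 3.

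Of 14 phenylpropanoid genes 4 fell (4.84% of all genes), with a median of -0.40: 4CL2 (-0.64 ± 0.15), 4CL1 (-0.52 ± 0.15), CAD5 (-0.61 ± 0.17) and PAL2 (-0.40 ± 0.13), enzymes that lead from phenylalanine to lignin and related phenolics. PAL1, the partner of PAL2 at the entry step, was at 1079, 919.7 and 990.2 CPM in Col and at 710.1, 1034 and 857 CPM in the mutant (-0.20 ± 0.18). Of these, 4CL2 kept its call without any one library other than Col library 1 or stp1/4/13 library 1. PAL2 lost its call under the replicate block and without any one of the 6 libraries. Falls numbered 4 to 7 under the alternatives that left out no single library. The count of falls was 0 without Col library 1 or stp1/4/13 library 1, 2 without Col library 2, 1 without Col library 3 or stp1/4/13 library 3 and 7 without fls2 library 1. The ethylene synthesis gene ACS6 was at 128, 90.4 and 105 CPM in Col and at 37.8, 63.6 and 51.8 CPM in the mutant (-1.08 ± 0.23). It was the 1 of 19 ethylene genes that fell (4.84% of all genes), a call kept under each library left out. Of the 19, 2 rose (7.67% of all genes), the ethylene signalling gene EIN2 (0.60 ± 0.15) and the receptor gene ERS2 (0.59 ± 0.18). Both calls were lost without Col library 1 or stp1/4/13 library 1 or 3. That of ERS2 was also lost without stp1/4/13 library 2 or Col library 3. RLE and upper quartile scaling and the replicate block ended it too (adjusted p 0.055, 0.059 and 0.05 with edgeR). Ethylene genes that rose numbered 1 to 5 under the alternatives that left out no single library. Of 30 jasmonate genes 2 fell, a share near the 4.84% of all genes, with a median of 0.05. They were the synthesis gene AOC3 (-0.69 ± 0.19) and the repressor gene JAZ1 (-0.54 ± 0.17). Neither passed without any one of Col libraries 1 to 3 or stp1/4/13 libraries 1 and 2. JAZ1 also did not pass under the replicate block.

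Aliphatic glucosinolate genes, which make the methionine-derived defence compounds of this plant, mostly fell in stp1/4/13. Of 14 tested 11 fell (4.84% of all genes), with a median of -1.29, and in 12 the mutant libraries stood wholly below Col (16% of all genes). CYP79F1, which converts chain-elongated methionine to aldoximes, was at 13.2, 12.2 and 11.4 CPM in Col, 1.78, 3.59 and 1.96 CPM in stp1/4/13 (-2.32 ± 0.29, edgeR adjusted p = 9.4e-05) and 51.1, 101 and 68.1 CPM in fls2. FMO GS-OX3, which oxidises side chains, was at 9.19, 8.66 and 9.08 CPM in Col against 1.69, 3.99 and 1.09 CPM (-1.98 ± 0.32). BCAT4, the aminotransferase at the start of chain elongation, was at 41.2, 63.1 and 41.4 CPM against 12.9, 25.9 and 20.5 CPM (-1.30 ± 0.23). For these 3 genes the order of levels was fls2, then Col, then stp1/4/13, with no overlap. The chain elongation synthases MAM1 (-1.17 ± 0.22) and MAM3 (-0.88 ± 0.23) fell too, and these, like CYP79F1 and CYP79F2 (-1.52 ± 0.28), are close homologues whose reads may be split. GSTF11 (-2.04 ± 0.54) and the transporter gene BAT5 (-1.61 ± 0.43) were called at low levels, and the call of BAT5 was lost without Col library 1 or 2 or stp1/4/13 library 1 or 3, that of GSTF11 without stp1/4/13 library 1 or 2 or Col library 2 and with Col and stp1/4/13 fitted alone. MAM3 lost its call without stp1/4/13 library 1 or 3 or Col library 2. MYB28, the main regulator of this pathway, was at 5.52, 6.25 and 5.80 CPM against 4.01, 3.59 and 2.5 CPM and did not pass (-0.79 ± 0.28, edgeR adjusted p = 0.081). The count of falls was 6 without stp1/4/13 library 1 or Col library 2.

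Endoplasmic reticulum (ER) chaperones, which fold secreted and membrane proteins, include many that fell in the mutant. Of 18 genes of ER protein folding 11 fell (4.84% of all genes), with a median of -0.54, and in 16 the mutant libraries stood wholly below Col (16% of all genes). BIP3, the stress-induced member of the luminal Hsp70 family, was at 59.6, 55.1 and 40.5 CPM in Col, 15.7, 13.9 and 11.8 CPM in stp1/4/13 (-1.91 ± 0.20, edgeR adjusted p = 1.4e-05) and 1.71, 1.38 and 0.933 CPM in fls2. BIP2, an abundant member, was at 674, 637 and 624 CPM in Col, 339, 349 and 305 CPM in the mutant (-0.96 ± 0.14) and 375, 392 and 282 CPM in fls2. Col was thus the highest genotype for both, and the mutant overlapped with fls2 for BIP2. BIP1, nearly identical to BIP2, fell by -0.71 ± 0.15 on the log2 scale with reads that may be shared. BZIP60, a transcription factor of the unfolded protein response, was at 245, 207 and 242 CPM against 123, 139.8 and 134 CPM (-0.81 ± 0.18), a call lost without stp1/4/13 library 1. SHD, the ER Hsp90, fell (-0.68 ± 0.14), and BZIP28, the other main regulator of this response, did not pass (0.17 ± 0.19). The count of falls was 6 without Col library 1, stp1/4/13 library 1 or stp1/4/13 library 3. It was 11 to 15 under the alternatives that left out no single library.

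Smaller groups gave few calls, beside the 7.67% of all genes that rose and the 4.84% that fell, and in these lists a count of 1 or 2 lies within 2 genes of those shares. Of 15 abscisic acid genes 3 rose: RD26, a NAC factor, from 20.2, 26.5 and 21.1 CPM to 52.4, 50.6 and 52.7 CPM (1.2 ± 0.16), the dehydrin COR47 (0.76 ± 0.14) and RD29A (0.98 ± 0.27), the last lost without Col library 1 or 3 or stp1/4/13 library 1 or 2. Of 15 glutathione transferase and alternative oxidase genes 2 fell, the mitochondrial NADH dehydrogenase NDB2 (-1.31 ± 0.27) and the glutathione transferase GSTU20 (-0.79 ± 0.13). Their list had a median of -0.56, with 5, 4 and 5 falls without fls2 library 1, 2 and 3. The alternatives that left out no single library gave 2 to 7 falls. Of 15 iron genes, F6'H1, the scopoletin synthesis enzyme, fell (-0.78 ± 0.15), and the ferritins FER1 (0.97 ± 0.21) and FER3 (0.50 ± 0.16) and the nicotianamine synthase NAS3 (1.04 ± 0.24) rose. The call of FER3 was lost under RLE and upper quartile scaling, DESeq2 and the replicate block and without any one of the 6 libraries other than Col library 2, and the count of rises was 1 without Col library 1 or stp1/4/13 library 2. Heat shock genes had a median of -0.62, with HSP90.1 (-1.02 ± 0.24) and HSP70 (-0.82 ± 0.22) called of 10, calls that both ended without Col library 1 or stp1/4/13 library 3, that of HSP70 also without stp1/4/13 library 1. Of 14 clock genes PRR7 rose (0.73 ± 0.15), as did RVE1 (1.38 ± 0.44). The call of RVE1 was lost under other scalings, under the replicate block and without any one of 5 libraries. Clock genes that rose numbered 1 to 6 under the alternatives that left out no single library. The autophagy genes ATG8E (0.50 ± 0.14) and ATG8F (0.51 ± 0.14) rose among 12, and both calls were lost without any one of the 6 libraries.

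Other lists held isolated calls, to be read beside the 4.84% of all genes that fell and the 7.67% that rose. MCM3 and PCNA2, of DNA replication, were the 2 of 18 cell cycle genes that fell (-1.17 and -0.57). Both calls were lost without Col library 1 or 3 or stp1/4/13 library 2 or 3. That of MCM3 was also lost with Col and stp1/4/13 fitted alone. That of PCNA2 was also lost under the replicate block and without either other Col or stp1/4/13 library. The phosphate transporter gene PHT1;4 (-0.82, 1 of 12 phosphate starvation genes) lost its call without stp1/4/13 library 1, and FLS1, a flavonol synthase and 1 of 10 flavonoid genes (-1.2 ± 0.38), lost it under DESeq2 and without stp1/4/13 library 1, Col library 2 or stp1/4/13 library 3. Of 17 root markers PRP3 rose (2.23 ± 0.68), carried by 12 CPM in stp1/4/13 library 2 beside 1.07 and 2.61 CPM in the others, and COBL9 had 0, 6 and 7 counts in Col and 0 in each mutant library. The call of PRP3 was lost under DESeq2 and without any one of Col libraries 1 to 3 or stp1/4/13 library 2. That of COBL9 was lost under the replicate block and without any one Col or stp1/4/13 library other than Col library 1. None of 5 guard cell markers passed with edgeR or DESeq2, and 0 had an unadjusted p below 0.05.

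The difference between Col and fls2 at 10 h holds flg22 perception together with whatever the fls2 line differs in without flg22, and the 2 cannot be told apart. It shares the Col libraries with the comparison described here, so values are set side by side. It covered 10035 genes (51.3%), against 2447 (12.5%) between stp1/4/13 and Col and 10215 (52.2%) between stp1/4/13 and fls2. For the pattern-triggered immunity list the median was 2.77 between Col and fls2, 2.08 between stp1/4/13 and fls2 and -0.37 between stp1/4/13 and Col. The sugar starvation list stood at 1.44, 2.82 and 1.31 in the same order, so Col was above fls2 and the mutant above Col. For photosynthesis the medians were -0.37, 0.35 and 0.72, and for aliphatic glucosinolates -1.55, -2.83 and -1.29. ER folding genes gave 0.96, 0.69 and -0.54.

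The 3 times were fitted together for the course of the mutant's difference. The 10 h libraries come from another deposited table than the 2 h and 24 h libraries, so time and table cannot be told apart. In this fit 56 genes were higher and 11 lower in stp1/4/13 at 2 h, 1048 and 618 at 10 h, and 1159 and 1359 at 24 h, of 21700 tested (0.258%, 0.0507%, 4.83%, 2.85%, 5.34% and 6.26%; at 10 h 7.68% in either direction). The sugar starvation median was 0.34 at 2 h, 1.31 at 10 h and 0.04 at 24 h. ASN1 differed by 1.35 ± 0.65 at 2 h and 1.4 ± 0.64 at 24 h, where it did not pass, against 4.37 at 10 h, and the change of its difference did not pass either (10 h minus 2 h 3.03 ± 0.94, edgeR adjusted p = 0.36, and 10 h minus 24 h 2.97 ± 0.93, adjusted p = 0.11). BT2 differed by 0.51 ± 0.41 at 2 h and by 1.4 ± 0.41 at 24 h, where it passed. Photosynthesis genes kept their sign, with medians of 0.83, 0.72 and 0.99 and 2, 19 and 34 of 39 genes higher. The ER folding median was -0.04, -0.55 and 0.17, and that of pattern-triggered immunity genes -0.43, -0.37 and -0.10.

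Tested as a difference of differences, the mutant's effect at 10 h exceeded that at 2 h for 2 genes (0.00922%) and was below it for 3 (0.0138%), 5 in all (0.023%). Against 24 h, 100 genes were more positive at 10 h (0.461%) and 58 more negative (0.267%). With the replicate number as a block within each time, the counts were 75 and 35 against 2 h and 762 and 633 against 24 h. Same-numbered Col and stp1/4/13 libraries deviated together at 2 h (correlation across genes 0.15 to 0.21) but less evenly at 24 h (0.043 to 0.34) and hardly at 10 h (0.017 to 0.053). These counts also rest on single libraries. Against 24 h they were 4 and 1 without Col 24 h library 1, 7 and 8 without stp1/4/13 24 h library 2, and 585 and 885 without Col 24 h library 3. Leaving out Col library 1, 2 or 3 of 10 h gave 18 and 20, 17 and 8, and 18 and 12, and stp1/4/13 library 2 or 3 of 10 h gave 32 and 25, and 23 and 13. Without Col 24 h library 2 they were 38 and 17, without stp1/4/13 24 h library 3 34 and 30, and without stp1/4/13 24 h library 1 239 and 129. NSP5, a nitrile specifier protein that directs glucosinolate breakdown, kept its call under each of these alternatives: it was at 476, 680.3 and 574 CPM in Col and at 1296, 1243 and 1438 CPM in stp1/4/13 at 10 h (1.2 ± 0.15), and differed by -0.04 ± 0.23 at 2 h and -1.46 ± 0.23 at 24 h. Against 2 h, both counts were 0 without Col or stp1/4/13 library 3 of 2 h or stp1/4/13 library 1 of 10 h.

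**Figure D5:**
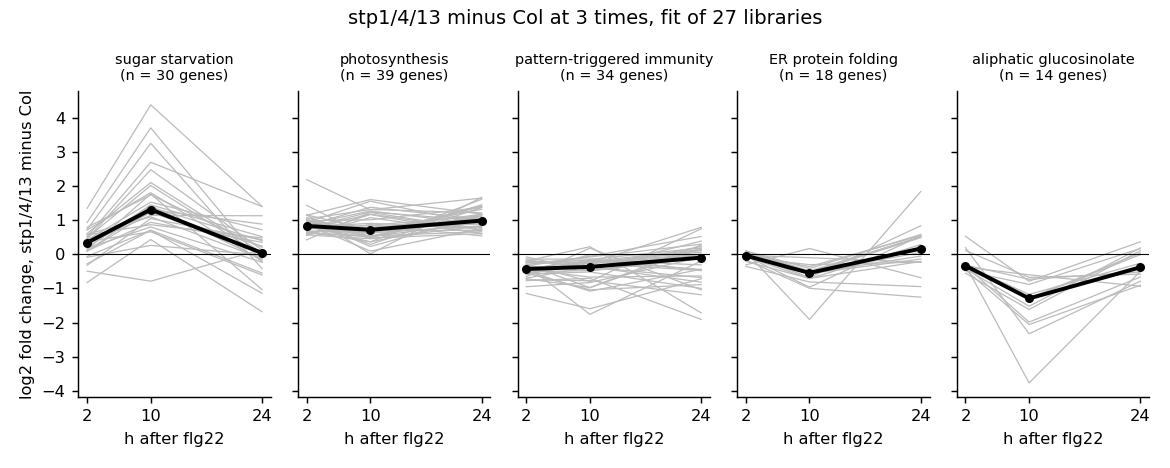
Log2 difference between stp1/4/13 and Col at 2, 10 and 24 h in the fit of 27 libraries, one line for each gene of 5 lists and a bold line at the median. The sugar starvation median rises from 0.34 to 1.31 and returns to 0.04, while the photosynthesis median stays between 0.72 and 0.99.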

How the data were processed

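Libraries were of the BrAD-seq kind, which reads transcript 3′ ends with strand, from 500 ng of total RNA, per the labels' protocols. The values deposited by the authors are raw read counts per gene, made with fastp 0.19.7, STAR 2.6.1b and featureCounts 1.6.0 on TAIR10, per the submitters' processing notes. The strand setting of the counting and molecular identifiers are not given in the sources used here, so genes that overlap an antisense gene are uncertain, and PCR copies are counted as reads. Of 32833 loci, 32548 matched RefSeq TAIR10.1 by locus tag, which gave names and promoters; 10804 have a symbol. That annotation also differs in name from the build the authors used.

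Counts were tested with edgeR 4.0.16 in R 4.3.3 (TMM scaling, filterByExpr, quasi-likelihood test, Benjamini-Hochberg adjustment over all genes tested, threshold 0.05). The 9 libraries at 10 h were fitted together, and the 27 flg22 libraries for times. Values are CPM with TMM scaling; differences are log2 ± SE. The script was tested on simulated data. Alternatives were RLE and upper quartile scaling, DESeq2 1.42.0, no filter or a strict filter on low counts (CPM of 2 in 3 libraries), Col and stp1/4/13 alone, a replicate block and leaving out each library. Gene lists and members were chosen with earlier results of these data known: of 526 list members written, 516 were resolved to a locus. Genes named are the 12 largest rises and falls (symbol known, mean log2 CPM 3 or more, 1 direction in each same-numbered pair), up to 4 per list by size (mean log2 CPM 1 or more), the neighbours of the mutated genes, and the leading time differences; other list members were named after their values were seen. No 2 libraries held identical counts. The sucrose and 2-deoxyglucose libraries were not used here.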

Additional observations from a re-analysis of the deposited data

Results flagged for a closer look

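These genes are given because the mutant's difference from Col at 10 h differed from that at another time. The test was of that difference, in edgeR's fit of 27 libraries without a replicate block (log2 ± SE, adjusted p). The 10 h libraries come from another deposited table, so time and table cannot be told apart, and apart from NSP5 each call was lost without at least 1 library.

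Against 2 h, OEP6, an outer envelope protein of plastids, differed by 1.83 ± 0.29 (adjusted p = 0.017). Against 24 h it differed by 1.41 ± 0.29 (adjusted p = 0.025).

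Genes of sugar shortage and of breakdown were among those more positive at 10 h than at 24 h. SEN1 differed by 3.93 ± 0.73 (adjusted p = 0.017), standing 3.70 above Col at 10 h and -0.23 from it at 24 h. DIN4 differed by 2.80 ± 0.50 (adjusted p = 0.014), with 1.77 at 10 h and -1.03 at 24 h. STP14 differed by 2.64 ± 0.61 (adjusted p = 0.039) and NSP5 by 2.66 ± 0.32 (adjusted p = 0.00028). The NAC factors NAC3 and RD26 differed by 3.33 ± 0.67 (adjusted p = 0.025) and 1.79 ± 0.39 (adjusted p = 0.029), and the glucosyltransferase gene UGT75B1 by 2.97 ± 0.58 (adjusted p = 0.023).

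Genes more negative at 10 h than at 24 h include BIP3, which differed by -3.74 ± 0.89 (adjusted p = 0.044), with -1.91 at 10 h and 1.84 at 24 h. MYBL2, a repressor of flavonoid genes, differed by -2.21 ± 0.43 (adjusted p = 0.023) because it stood 1.11 above Col at 10 h and 3.32 above it at 24 h. The expansin gene EXPA1 differed by -1.60 ± 0.27 (adjusted p = 0.013), and FIB2, a fibrillarin of ribosome assembly, by -1.66 ± 0.36 (adjusted p = 0.029). The ribosomal protein gene RPSAb differed by -1.60 ± 0.39 (adjusted p = 0.048).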

How the results depend on the processing

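At 10 h the counts of genes higher and lower in stp1/4/13 ran from 888 to 1689 and from 419 to 1152 without 1 library, and DESeq2 gave 1446 lower genes. With a replicate block, numbers shared by groups taken as 1 trial, they were 1438 and 873. Same-numbered 10 h libraries did not deviate together (median correlation across genes 0.020, range -0.075 to 0.072). Those of Col and stp1/4/13 did at 2 h (0.15 to 0.21), and at 24 h they ran from 0.043 to 0.34. Since the 10 h pairs did not, the 10 h fit did not pair the libraries by number. The fit of 27 libraries did not either. Same-numbered libraries of all groups there had a median correlation of 0.15 at 2 h and 0.27 at 24 h. Differently numbered ones stood at -0.065 and -0.12. Deviations from a group's mean sum to 0, so these negative values follow largely from the positive ones and are no separate reference. The 10 h result therefore does not settle the pairing for the time differences, and their counts are given with and without the block. Under RLE and upper quartile scaling 1304 genes were higher and 1178 and 1211 lower; with Col and stp1/4/13 fitted alone, 2001 and 1403.

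Against 2 h, genes more positive at 10 h numbered 1 under RLE, upper quartile scaling, no filter and the strict filter, and DESeq2 gave 8 more positive and 29 more negative, the replicate block 75 and 35, and Col and stp1/4/13 alone 0 and 0. Without 1 library they ran from 0 to 2 and from 0 to 4. Against 24 h, DESeq2 gave 273 and 368 and the replicate block 762 and 633. More negative genes numbered 111 under upper quartile scaling, 103 unfiltered, 93 under the strict filter and 91 with Col and stp1/4/13 alone. Without 1 library they ran from 4 to 585 and from 1 to 885. The cause was not tested.

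Of 176 genes of the lists and leading genes called at 10 h, 104 kept their call under each of 16 alternatives, 72 lost it under at least 1, and 0 changed sign. Changes of sign were seen in 4 genes that did not pass. WRKY70 was at -0.00916 under RLE, -0.0105 under upper quartile scaling, -0.00927 under DESeq2 and -0.0331 to 0.107 without 1 library (-0.0302 without Col library 3). LHCB2.2 was at -0.0383 under RLE and DESeq2, -0.0400 under upper quartile scaling, -0.0175 with the replicate block and -0.236 to 0.134 without 1 library (-0.0247 and -0.0467 without Col libraries 2 and 3). Without 1 library MPK3 ran from -0.0796 to 0.0506 (0.0301 without stp1/4/13 library 1) and NPR1 from -0.0785 to 0.222. Depth limits genes with few counts.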
